A study of Homo sapiens with 6 samples.

Results

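The proteasome genes are described here, as RNA levels in MDA-MB-231 cells in which brachyury was targeted and in their control cells. They were all rows of the gene table whose symbol starts with PSM, then a letter from A to G and a number, together with POMP, ADRM1 and NFE2L1. PSMB8 and PSMB9, which lie in the MHC region, were left out because counts are lost there. Apart from that exclusion the rule uses no measured value. It gave 49 of 54259 genes, of which 47 were among the 15277 genes that had enough counts to be tested. The other 2, PSMA8 and PSMB11, which encode core subunits of testis and thymus, were listed at 0 in all 6 libraries. In the smallest library this allows up to 0.155 CPM (read counts normalized to the library total), or 3 counts. That limit is given without the TMM scaling of libraries that all other CPM values include.

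The proteasome is the protease complex that degrades proteins tagged with ubiquitin. Its core is a barrel of alpha rings, which form the gate, and beta rings, which hold the catalytic sites. The regulatory particle that caps the core consists of a base, whose ATPases unfold substrates, and a lid, which removes the ubiquitin chains. Dedicated chaperones assemble core and base, and other proteins activate or inhibit the core. NFE2L1 (also called NRF1 or TCF11) is a transcription factor that is made at the endoplasmic reticulum, is normally degraded by the proteasome, and drives transcription of proteasome subunit genes when proteasome activity falls.

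MDA-MB-231 is an established human cell line of triple-negative breast cancer. The shBry group comprised 3 libraries of cells with a short hairpin RNA against the transcription factor brachyury, and the shNC group 3 libraries of cells with the control hairpin. The labels give no further treatment or time, and say neither whether the lines were clones nor whether the libraries came from separate cultures, so p-values measure only the spread between these libraries. The libraries belong to a study of brachyury and the cell cycle in lung cancer, in which they served to list genes that differ with the hairpin.

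The libraries held between 19319411 and 22985371 counts in shBry and between 19684251 and 21718591 counts in shNC. Brachyury was listed at 0 counts in every library, and so gives no check of which libraries carry the hairpin. The submitters' design text calls the RNA pericardial, but VIM, CD44, AXL, MSN and CAV1, which mark mesenchymal-type breast cancer cells, were expressed in all libraries, whereas ESR1, PGR and CDH1 stayed under 1 CPM. The other markers expected to be low in this line, GATA3 and EPCAM, were at 9.35 to 13.9 and 0.962 to 5.01 CPM. Of the 7 mesothelial markers, 4 stayed under 1 CPM, and MSLN (27.6 to 49.2 CPM), LRRN4 (3.06 to 7.80 CPM) and CALB2 (0.590 to 11.1 CPM) did not. The mesothelial list summed to 51.4 to 57.7 CPM in shBry and 40.2 to 42.1 CPM in shNC, and its part in the results was not tested. All 6 leukocyte, all 4 endothelial and all 4 heart muscle markers stayed under 1 CPM. Over all genes, the counts of any pair of libraries from the same group differed beyond counting error (chi-square divided by degrees of freedom, 4.70 to 15.5). In bulk RNA, fewer cells that express a gene and less of its RNA per cell cannot be told apart.

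The proteasome genes did not move in a single direction in shBry cells. A gene was called where the adjusted p of edgeR's quasi-likelihood test (Benjamini-Hochberg adjustment over all 15277 genes) was below 0.05 and the fold change above 1.5. NFE2L1 and the lid deubiquitinase PSMD14 were called higher, which is 4.26% of the 47 tested proteasome genes, where 17.1% of all tested genes were called higher. The lid subunits PSMD3 and PSMD13, the base scaffold PSMD1, the beta subunits PSMB1 and PSMB4, the alpha subunit PSMA2 and the ATPase PSMC2 were called lower, which is 14.9% of the tested members beside 15.2% of all tested genes. The median log2 fold change of shBry relative to shNC was -0.09 over the 47 genes, with quartiles at -0.37 and 0.25, and 0.03 over all genes, with quartiles at -0.40 and 0.44.

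Many of the differences were smaller than 1.5-fold. At an adjusted p below 0.05 alone, 13 members were higher (27.7%, beside 28.0% of all genes) and 18 were lower (38.3%, beside 25.3% of all genes), and 16 did not pass. All shBry libraries lay above all shNC libraries for 10 members (21.3%, beside 30.6% of all genes) and below them for 19 members (40.4%, beside 28.9% of all genes), and the groups overlapped for 18. Of the 13 members that were higher at the adjusted p alone, 7 passed in each of the 6 fits that left out a library, and of the 18 that were lower, 13 did. PSMD7 and PSME2 passed in 1 of the 6 fits and PSMD8 and PSMA7 in 2. Leaving out shNC 1 lost PSMD8, PSMD7, PSME2, PSME4 and PSMD12 and took the count of higher members to 8, and the count was 9 without shBry 1, shBry 3 or shNC 3.

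**Figure D1:**
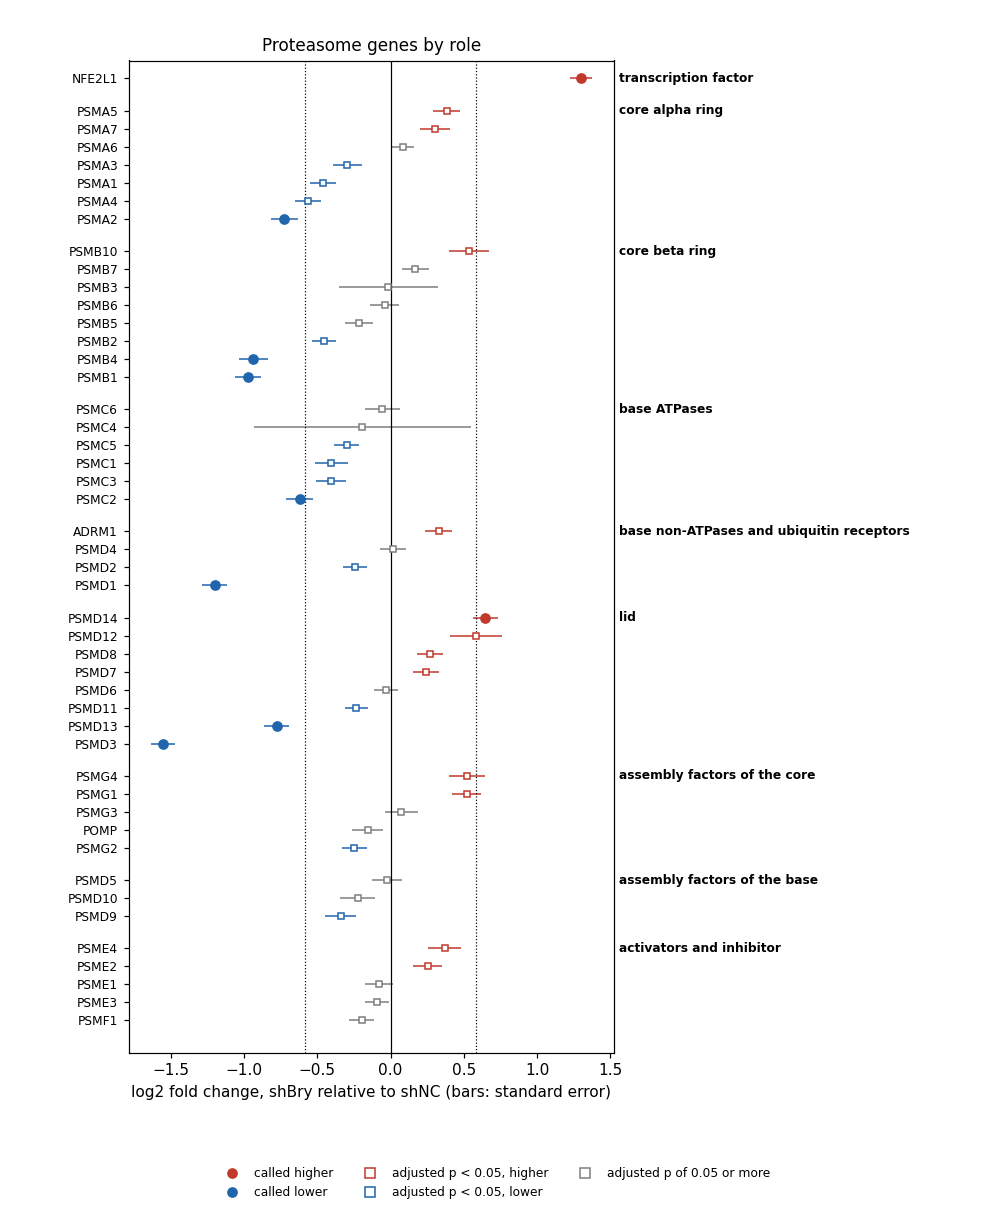
Log2 fold change of shBry relative to shNC for the 47 tested proteasome genes, grouped by role, with bars for the standard error and dotted lines at a fold change of 1.5. Filled points are called genes. NFE2L1 at 1.30 and PSMD3 at -1.55 are the ends of the range. Members of the alpha ring, the beta ring and the lid lie on both sides of 0, and all 6 ATPases of the base lie below 0. Of these ATPases, PSMC6 (-0.06) did not pass the adjusted p, and PSMC4 (-0.19) had too few counts to be read.

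The shBry libraries were not alike for these genes. shBry 1 was the highest of the 3 for 32 of the 47 members (68.1%), and for 37.7% of all tested genes. shBry 2 was the lowest of the 3 for 36 of the 47 members (76.6%), and for 42.9% of all tested genes. In shBry 2, genes with at most 2995 exon bases, the lower quartile, lay at a median of -0.18 on the log2 scale relative to their group, and those with at least 7336, the upper quartile, at 0.11. Members of at most 3582 exon bases, the median of the members, lay at -0.27 in shBry 2 and the longer ones at -0.16, and in shBry 1 they lay at 0.22 and 0.10. The part of this in the results was not tested, and without shBry 2 there were 4 members called higher (NFE2L1, PSMD14, PSMB10 and PSMG4) and 6 called lower, with PSMC2 lost. Without shBry 1 there were 3 called higher (PSMD12 added) and 8 lower (PSMC4 added).

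**Figure D2:**
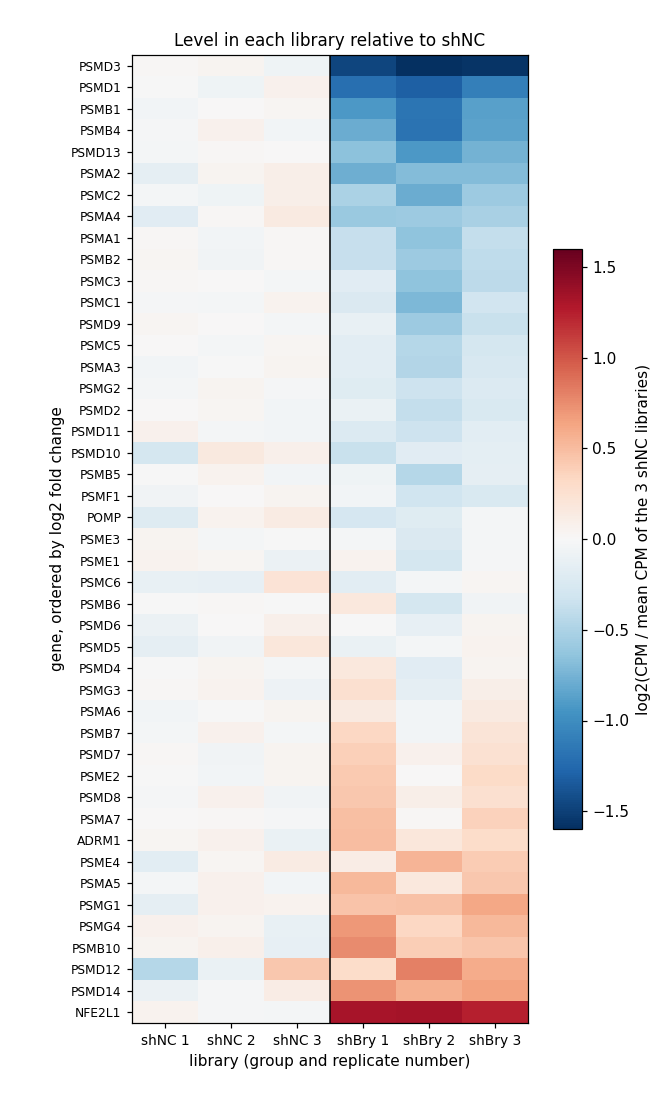
Level of each tested proteasome gene except PSMB3 and PSMC4 in each library, with genes ordered by log2 fold change. The level is the log2 ratio of the CPM to the mean CPM of the 3 shNC libraries. PSMD3 and PSMD1 are low and NFE2L1 is high in all 3 shBry libraries, and the column of shBry 2 is bluer than those of shBry 1 and shBry 3 for most genes in the middle of the order.

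NFE2L1 (chr17:48048329-48061487, plus strand, GRCh38) had 1304, 1314 and 1236 CPM in shBry 1, 2 and 3 and 542, 514 and 511 CPM in shNC 1, 2 and 3. Every shBry library was thus above every shNC library, with libraries of a group close to each other. The log2 fold change was 1.30 (SE 0.08, edgeR adjusted p = 6.4e-09), which is 2.46-fold, and it lay between 1.26 and 1.32 when each library was left out in turn. Of its exon bases, 3.30% are shared with a gene on the other strand.

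NFE2L1 and its relative NFE2L2 bind the antioxidant response element, whose core is TGACNNNGC. This motif was searched on both strands of the RefSeq promoter windows (GRCh38.p14), which run from 250 bases before to 50 bases after a gene's start. It was present for 15 of the 43 members with a window (34.9%), and for 16.1% of 27305 genes in the table or 13.3% of its 35116 windows. No window was found for PSMD4, PSMG3, PSMB7, PSMB6, PSMA7 and PSMB1. The letters of the motif also cover part of the AP-1 site TGACTCA. Of the 15 tested members with the motif, 5 were higher and 6 lower at an adjusted p below 0.05, and of the 26 tested members with a window but no motif, 7 were higher and 11 lower, beside 28.0% higher and 25.3% lower of all tested genes. The box CCAAT was in 21 of the 43 members (48.8%), beside 39.7% of all genes, and overlap between the motifs was not examined. A match is a description of the letters and not a shown binding site.

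The 4 windows below are printed because they are those of the 3 highest and of the lowest member by fold change among members with the motif that passed the adjusted p. They belong to the lid subunit PSMD12 (chr17:67366528-67366827, minus strand), the core assembly chaperone PSMG1 (chr21:39183402-39183701, minus strand), the core activator PSME4 (chr2:53970944-53971243, minus strand) and the lid subunit PSMD3 (chr17:39980557-39980856, plus strand). They are written 5′ to 3′ on the strand of the gene, and the capitals mark TGACNNNGC or its reverse complement.
PSMD12: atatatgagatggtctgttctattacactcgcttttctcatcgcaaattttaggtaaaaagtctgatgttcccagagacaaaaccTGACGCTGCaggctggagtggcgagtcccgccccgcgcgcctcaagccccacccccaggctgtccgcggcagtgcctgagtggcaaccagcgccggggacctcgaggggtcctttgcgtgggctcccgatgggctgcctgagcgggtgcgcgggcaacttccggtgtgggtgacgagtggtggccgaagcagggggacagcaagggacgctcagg
PSMG1: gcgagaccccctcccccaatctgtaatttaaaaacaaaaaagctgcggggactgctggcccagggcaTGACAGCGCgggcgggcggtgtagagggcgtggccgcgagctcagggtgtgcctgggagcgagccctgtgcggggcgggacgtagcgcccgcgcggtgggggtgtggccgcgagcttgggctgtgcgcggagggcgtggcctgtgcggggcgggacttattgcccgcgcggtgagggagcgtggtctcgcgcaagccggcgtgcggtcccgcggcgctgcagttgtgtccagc
PSME4: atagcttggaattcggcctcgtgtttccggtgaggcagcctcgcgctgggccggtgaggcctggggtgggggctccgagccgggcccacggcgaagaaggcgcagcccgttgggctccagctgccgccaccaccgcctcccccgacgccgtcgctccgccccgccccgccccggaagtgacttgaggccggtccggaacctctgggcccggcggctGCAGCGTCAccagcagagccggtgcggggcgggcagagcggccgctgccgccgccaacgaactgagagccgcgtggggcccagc
PSMD3: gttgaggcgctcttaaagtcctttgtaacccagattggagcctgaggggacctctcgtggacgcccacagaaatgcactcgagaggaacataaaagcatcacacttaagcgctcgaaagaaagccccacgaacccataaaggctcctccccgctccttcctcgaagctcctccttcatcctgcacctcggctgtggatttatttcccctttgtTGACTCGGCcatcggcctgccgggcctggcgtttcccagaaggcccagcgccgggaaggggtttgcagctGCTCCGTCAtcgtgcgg
PSMD3, the member that was lowest in shBry, holds 2 matches, and the other 3 hold 1 each.

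In the catalytic beta ring, 8 of the 9 genes were tested. Of these 8, 2 were called lower (beside 15.2% of all tested genes) and 0 higher (beside 17.1%). PSMB1, a beta subunit without a catalytic site (chr6:170535117-170553341, minus strand), had 157, 132 and 163 CPM in shBry 1, 2 and 3 and 288, 299 and 303 in shNC 1, 2 and 3, a log2 fold change of -0.98 (SE 0.09, edgeR adjusted p = 5.76e-07). PSMB4, the other called beta subunit, also without a catalytic site (chr1:151399534-151401944, plus strand), had 192, 146 and 184 CPM in shBry and 328, 347 and 322 in shNC, a log2 fold change of -0.94 (SE 0.10, edgeR adjusted p = 2.46e-06). For both, the highest shBry library was far below the lowest shNC library, and no exon base is shared with another gene.

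The constitutive catalytic subunits did not pass the adjusted p with all libraries and TMM scaling. PSMB5, which carries the chymotrypsin-like site, had 207, 159 and 197 CPM in shBry and 217, 226 and 211 in shNC, so that all shBry libraries were below all shNC libraries, and the log2 fold change was -0.21 (edgeR adjusted p = 0.0742). PSMB5 did pass without TMM (0.0251), with upper-quartile scaling (0.0267), with DESeq2 (0.0483) and with both other expression filters (0.0198 and 0.0457), all as adjusted p, and without shBry 1 or shNC 3. PSMB6, the caspase-like subunit, had 161, 117 and 137 CPM against 141, 144 and 142, with a log2 fold change of -0.04 (edgeR adjusted p = 0.753). PSMB7, the trypsin-like subunit, had 345, 268 and 317 CPM against 269, 289 and 269, with a log2 fold change of 0.17 (edgeR adjusted p = 0.139, and 0.0137 without shBry 2). For PSMB6 and PSMB7 the groups overlapped, with shBry 2 the lowest of all 6 libraries for both.

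PSMB10, which takes the place of PSMB7 in the immunoproteasome, was present at a low level, with 22.0, 17.1 and 17.7 CPM in shBry and 13.4, 13.8 and 11.9 in shNC. The groups did not overlap, and the log2 fold change was 0.54 (SE 0.14, edgeR adjusted p = 0.00412), under the limit of 1.5-fold, which it passed (0.59) without shBry 2. Of its exon bases, 34.8% are also those of a neighbouring gene model on the same strand, so its counts are uncertain. Per kilobase of exon, the level of PSMB10 was 0.0589 ± 0.00441 of that of PSMB7 in shBry and 0.0455 ± 0.00266 in shNC (mean ± SD, n = 3 each). PSMB2 was lower (log2 fold change -0.45, edgeR adjusted p = 0.000366). The summed level of the beta ring was 1110 ± 135 CPM in shBry and 1455 ± 29.5 CPM in shNC.

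PSMB3 could not be read. It had 27 to 87 counts per library, or 1.83, 3.67 and 1.20 CPM in shBry and 2.11, 2.51 and 2.20 in shNC, although a core needs it. The 5 coding genes nearest to it, MLLT6, CISD3, PCGF2, PIP4K2B and CWC25, had medians between 8.5 and 33.5 counts, while RPL23 and LASP1, which start 95.1 and 117 kb farther on, had medians of 9794 and 10225 counts. The ATPase PSMC4 was of the same kind. It had 180 counts in shBry 1 and 215 in shNC 2 but 28 to 37 in the other 4 libraries, and the 6 coding genes nearest to it, DYRK1B, FBL, FCGBP, ZNF546, ZNF780B and ZNF780A, had medians between 0 and 93.0 counts. AKT2, which starts 259 kb from it, had a median of 4288 counts. The cause of these low counts was not tested, and the fold changes of PSMB3 (-0.01) and PSMC4 (-0.19) are listed only for completeness. Leaving out shBry 1 took that of PSMC4 to -1.88 (edgeR adjusted p = 0.0144) and leaving out shNC 2 to 1.24. Without both genes the median of the proteasome genes stayed at -0.09.

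**Figure D3:**
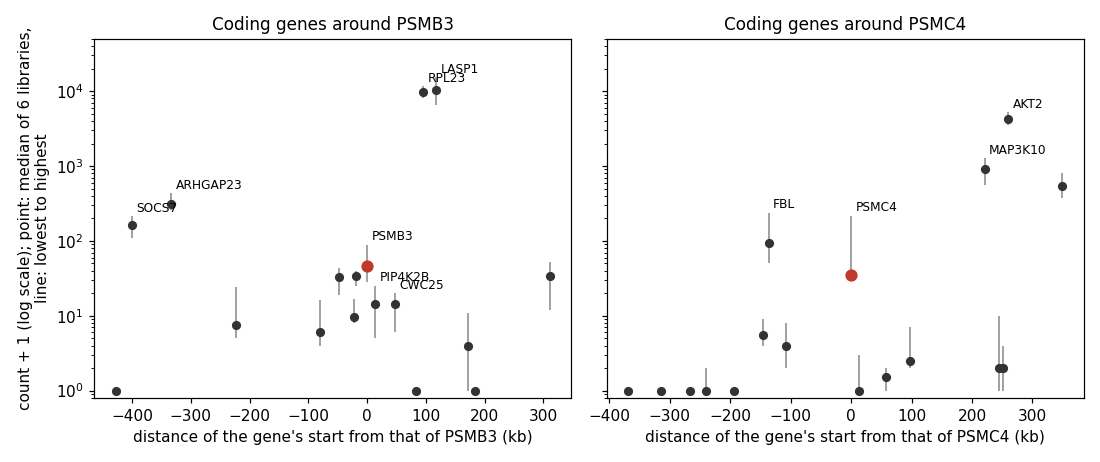
Counts of the 8 coding genes on each side of PSMB3 and of PSMC4 (red), plotted as count + 1 on a log scale against the distance of their start in kb, with points for the median and lines for the range over the 6 libraries. Genes near both members have few counts, and RPL23, LASP1, MAP3K10 and AKT2, which lie farther out, have medians of 907 or more.

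In the alpha ring, members passed in both directions. PSMA2 was called lower (chr7:42916857-42932223, minus strand), with 49.3, 52.1 and 52.1 CPM in shBry 1, 2 and 3 and 76.6, 87.1 and 90.2 in shNC 1, 2 and 3, a log2 fold change of -0.72 (SE 0.09, edgeR adjusted p = 1.21e-05). Its shBry libraries lay within 3 CPM of each other and below all shNC libraries. Exons of other genes, MRPL32 among them, cover 34.6% of its exon bases, so part of its counts may be theirs. PSMA4 was just under the limit of 1.5-fold, with a log2 fold change of -0.56 (edgeR adjusted p = 0.000119), and was called without shBry 3 (-0.59) or shNC 1 (-0.65). PSMA1 (-0.46) and PSMA3 (-0.29) were also lower at an adjusted p below 0.05, PSMA3 in all fits except that without shBry 2.

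PSMA5 was the highest alpha subunit by fold change, with 238, 186 and 224 CPM in shBry and 161, 174 and 161 in shNC. No library of a group overlapped with the other group, and the log2 fold change was 0.38 (SE 0.09, edgeR adjusted p = 0.00336). PSMA7 was higher too (0.30, edgeR adjusted p = 0.0217), but with shBry 2 only just above the shNC libraries and in 2 of the 6 fits without a library. PSMA6 gave 0.08 (edgeR adjusted p = 0.408). The summed level of the alpha ring was 1178 ± 129 CPM in shBry and 1172 ± 30.2 CPM in shNC, a difference smaller than the spread between libraries. For the summed beta ring all shBry libraries were below all shNC libraries. In that sum, mean CPM went from 297 in shNC to 151 in shBry for PSMB1 and from 333 to 174 for PSMB4. At the adjusted p alone, 4 of the 7 tested alpha genes were lower and 2 higher. Of the 8 tested beta genes, 3 were lower and 1 higher, beside 25.3% lower and 28.0% higher of all genes.

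Of the 6 ATPases of the base, 0 were higher (beside 28.0% of all genes) and 4 lower (beside 25.3%) at the adjusted p alone. PSMC2 was called lower (chr7:103344254-103369395, plus strand), with 65.1, 53.1 and 61.6 CPM in shBry and 90.1, 88.2 and 98.1 in shNC, a log2 fold change of -0.62 (SE 0.09, edgeR adjusted p = 7.8e-05). The groups did not overlap, but without shBry 2 the value was -0.55 and under the fold limit. PSMC3 (-0.41), PSMC1 (-0.40) and PSMC5 (-0.30) were lower without passing that limit. PSMC1 is uncertain, since exons of NRDE2 on the other strand cover 75.8% of its exon bases and the pseudogene PSMC1P1 had 27.1% as many counts. PSMC6, the highest ATPase by fold change, had 26.2, 28.8 and 30.1 CPM against 27.3, 26.9 and 34.4, with overlapping groups and a log2 fold change of -0.06 (edgeR adjusted p = 0.719). The summed level of the ATPases was 633 ± 85.4 CPM in shBry and 826 ± 6.07 CPM in shNC.

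Among the other base subunits, PSMD1, a large scaffold protein that holds ubiquitin receptors (chr2:231056864-231172827, plus strand), fell most. It had 65.2, 60.8 and 70.8 CPM in shBry 1, 2 and 3 and 150.0, 143 and 158 CPM in shNC 1, 2 and 3. The shBry libraries were all below the shNC libraries, with a log2 fold change of -1.20 (SE 0.09, edgeR adjusted p = 5.69e-08), or 2.30-fold. HTR2B on the other strand shares 10.8% of its exon bases. PSMD2, the second scaffold and the most abundant subunit in CPM, was lower by less (-0.24, edgeR adjusted p = 0.0244) and did not pass without shBry 3 or without shNC 2.

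The ubiquitin receptors ADRM1 and PSMD4 of the base were not lower. ADRM1, the receptor that also binds the deubiquitinase UCHL5, had 527, 421 and 457 CPM in shBry and 382, 391 and 346 in shNC. Its groups did not overlap, and the log2 fold change was 0.33 (SE 0.09, edgeR adjusted p = 0.0080), although 17.2% of its exon bases are shared with other genes, LAMA5 among them. PSMD4 had 216, 169 and 198 CPM against 191, 198 and 187. shBry 1 was the highest and shBry 2 the lowest of all 6 libraries, and the log2 fold change was 0.02 (edgeR adjusted p = 0.885), with a sign that changed with the scaling of the libraries.

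The lid held the widest range. PSMD3, a structural lid subunit (chr17:39980797-39997960, plus strand), had 69.7, 62.5 and 65.3 CPM in shBry 1, 2 and 3 and 196, 199 and 185 CPM in shNC 1, 2 and 3. With a log2 fold change of -1.55 (SE 0.08, edgeR adjusted p = 2.22e-09), or 2.94-fold, it was the lowest of all proteasome genes, and the value lay between -1.61 and -1.53 when each library was left out. No exon base of PSMD3 is shared with another gene. PSMD13, also structural (chr11:236546-252984, plus strand), had 192, 159.9 and 179 CPM in shBry and 298, 307 and 305 in shNC, a log2 fold change of -0.78 (SE 0.08, edgeR adjusted p = 2.86e-06). SIRT3 shares 6.63% of its exon bases.

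In the opposite direction, PSMD14, the metalloprotease that cuts ubiquitin chains off substrates at the lid (chr2:161308038-161411717, plus strand), had 165, 149 and 157 CPM in shBry and 93.9, 98.7 and 109 in shNC. All shBry libraries were above all shNC libraries, and the log2 fold change was 0.65 (SE 0.08, edgeR adjusted p = 1.84e-05), called in all 6 fits without a library. Per kilobase of exon, the level of PSMD14 was 0.336 ± 0.0374 of that of PSMD3 in shNC and 1.54 ± 0.0138 in shBry (mean ± SD, n = 3 each). As these are the lid genes with the highest and the lowest fold change, the ratios are a description.

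PSMD12 had 74.9, 107 and 92.7 CPM in shBry and 44.7, 56.9 and 82.3 in shNC. The highest shNC library, shNC 3, was above the lowest shBry library, and the log2 fold change of 0.58 (SE 0.18, edgeR adjusted p = 0.0126) was just under the limit of 1.5-fold, which it passed without shBry 1 (0.71) or without shNC 3 (0.83). Without shNC 1 (0.0578) and with DESeq2 (0.0896) it did not pass the adjusted p. PSMD8 (0.27) and PSMD7 (0.24) were higher and PSMD11 (-0.23) lower at an adjusted p below 0.05, each lost in at least 2 of the 6 fits without a library, and PSMD6 gave -0.03 (edgeR adjusted p = 0.784). The summed level of the lid was 1455 ± 100 CPM in shBry and 1538 ± 21.7 CPM in shNC, which differed by less than the spread of the shBry libraries.

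No assembly factor was called, beside 17.1% called higher and 15.2% called lower of all tested genes. Among the chaperones of the core, PSMG4 had 30.0, 23.3 and 26.6 CPM in shBry and 19.4, 19.1 and 17.1 in shNC, a log2 fold change of 0.52 (SE 0.12, edgeR adjusted p = 0.00281), with 15.0% of its exon bases shared with genes on the other strand. PSMG1, which pairs with PSMG2, had 55.5, 56.0 and 61.8 CPM against 36.5, 42.5 and 42.0, a log2 fold change of 0.52 (edgeR adjusted p = 0.000442). For PSMG4 and PSMG1 the groups did not overlap. PSMG2 was on the other side, with 59.4, 54.1 and 58.7 CPM against 66.4, 70.4 and 67.4 and a log2 fold change of -0.25 (edgeR adjusted p = 0.0247), which did not pass without shBry 2, shBry 3 or shNC 2. PSMG3 gave 0.07 (edgeR adjusted p = 0.60). POMP, the chaperone needed for beta ring maturation, had 55.5, 58.3 and 65.4 CPM against 57.7, 69.1 and 73.2 with overlapping groups and a log2 fold change of -0.16 (edgeR adjusted p = 0.223).

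Among the chaperones of the base, PSMD9 was lower, with 78.8, 56.9 and 66.7 CPM in shBry and 87.1, 85.3 and 83.2 in shNC, and a log2 fold change of -0.34 (edgeR adjusted p = 0.0153). Without shBry 3 it did not pass, and 22.6% of its exon bases are shared with other genes. PSMD5 had 50.4, 52.9 and 56.6 CPM against 49.0, 52.1 and 61.8, with overlapping groups (-0.02, edgeR adjusted p = 0.853), and PSMD10, known as the oncoprotein gankyrin, gave -0.23 (edgeR adjusted p = 0.129, and 0.0288 without shNC 1). The row of the antisense transcript PSMD5-AS1 had 14.9, 12.7 and 13.9 CPM in shBry and 5.13, 4.68 and 5.51 in shNC, a log2 fold change of 1.44 (edgeR adjusted p = 1.99e-06), and no exon base of PSMD5 is shared with it.

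Of the activators and the inhibitor, none was called, beside 17.1% called higher and 15.2% called lower of all tested genes. The groups overlapped for all 5. Of all genes, 30.6% had all shBry libraries above all shNC libraries, and 28.9% had them below. PSME4, the activator known as PA200, was higher at the adjusted p alone, with 61.5, 82.4 and 75.2 CPM in shBry and 50.4, 57.8 and 61.8 in shNC, a log2 fold change of 0.37 (edgeR adjusted p = 0.0135) that did not pass without shNC 1. PSME2, an interferon-inducible activator subunit, gave 0.25 (edgeR adjusted p = 0.0472, lost with upper-quartile scaling, DESeq2 and limma-voom) and its partner PSME1 -0.08 (edgeR adjusted p = 0.51). Per kilobase of exon the level of PSME1 was 1.56 ± 0.0401 of that of PSME2 in shBry and 1.96 ± 0.161 in shNC. PSME3, the nuclear activator, gave -0.09 (edgeR adjusted p = 0.341). PSMF1, the inhibitor PI31, was the lowest of the group, with 138, 114 and 119.5 CPM against 137, 143 and 146 and a log2 fold change of -0.20 (edgeR adjusted p = 0.0696). It passed the adjusted p under the same scalings, filters and DESeq2 as PSMB5 (0.0229 to 0.0449), and without shBry 1.

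Summed over the 49 members, the level was 8750 ± 696 CPM in shBry and 8829 ± 81.9 CPM in shNC. NFE2L1 is a large part of that sum. For the 35 subunits of core, base and lid alone it was 6198 ± 627 CPM in shBry, with 6771, 5528 and 6296 CPM in shBry 1, 2 and 3, and 7002 ± 86.5 CPM in shNC. All shBry libraries were below all shNC libraries, shBry 1 by the least.

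**Figure D4:**
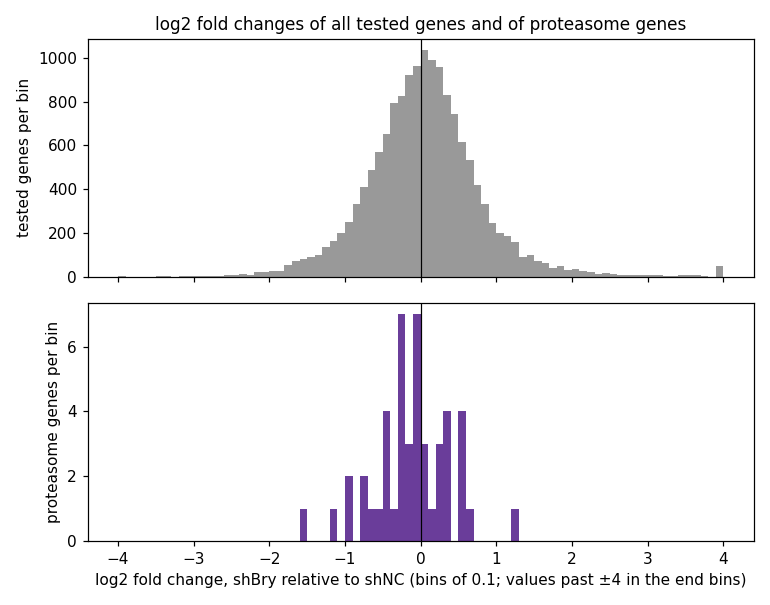
Number of genes per bin of 0.1 in log2 fold change of shBry relative to shNC, for all 15277 tested genes (top) and the 47 tested proteasome genes (bottom), with values past ±4 in the end bins. Most proteasome genes lie between -0.5 and 0.5, and the single gene above 1 is NFE2L1.

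Levels ranged widely between members. Per kilobase of exon, taken over all annotated transcripts of a gene, shNC levels were highest for PSMD2 (237 ± 6.05 CPM per kb), PSMA7 (211 ± 2.99) and PSMC3 (187 ± 3.14), which differ from each other by more than their spread. Among tested members, they were lowest, apart from PSMB3 and PSMC4, for PSMG4 (1.78 ± 0.121), PSMC6 (3.94 ± 0.568) and PSME4 (5.53 ± 0.565). Long annotated exons lower this value, and those of PSMG4 sum to 10418 bases. NFE2L1 moved from 89.7 ± 2.94 CPM per kb in shNC to 221 ± 7.30 in shBry, past most subunits, and PSMB4 from 154 ± 6.08 to 80.6 ± 11.3, below PSMB7, which it equalled in shNC (154 ± 6.32).

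Exons of other genes cover more than 10% of the exon bases of 12 members and none of those of 26. The sources used here do not state whether reads were counted by strand, so such overlapping members are uncertain. Beside those given above these are PSMD7 (30.7%), PSMA1 (24.7%), PSMC5 (19.5%), PSMG2 (16.7%) and PSMA6 (14.1%). Of 43 pseudogene rows named after members, 30 had no count and 6 reached 10 counts in a library. The members lie on 18 chromosomes, with 8 each on chromosomes 14 and 17.

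Genes that work with the proteasome or with NFE2L1 were taken from a list of 34, chosen with earlier results of these data known. More of them were higher than lower, which only describes the genes listed. At the rule for calls 12 were higher (35.3%, beside 17.1% of all genes) and 4 lower (11.8%, beside 15.2%), and their median log2 fold change was 0.33. All 4 related factors were called higher. MAFF, a small MAF protein and so a dimer partner of NFE2L1, had 278, 238 and 240.1 CPM in shBry and 73.2, 75.9 and 67.2 in shNC, a log2 fold change of 1.80 (SE 0.09, edgeR adjusted p = 1.41e-09). Its relatives MAFK (1.24) and MAFG (0.92) rose as well, and so did NFE2L2 (0.72), the oxidative stress factor related to NFE2L1. For each of the 4, all shBry libraries were above all shNC libraries, beside 30.6% of all tested genes. Each of the 4 was called in all 6 fits without a library. Exons of other genes cover 20.9% of the exon bases of NFE2L2 and 18.1% of those of MAFK, so the counts of both are uncertain.

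Genes that process NFE2L1 passed in both directions. SEL1L, part of the ubiquitin ligase that removes proteins from the endoplasmic reticulum, had 91.4, 141 and 116 CPM in shBry and 49.4, 48.7 and 63.7 in shNC, a log2 fold change of 1.11 (edgeR adjusted p = 1.61e-05). NGLY1, which strips the glycans from NFE2L1, had 46.9, 51.3 and 48.3 CPM against 26.5, 28.1 and 28.0 and rose by 0.83 on the log2 scale (edgeR adjusted p = 5.69e-06). DDI2, the protease that cuts NFE2L1 into its active form, had only 8.34, 10.4 and 6.47 CPM against 5.13, 4.07 and 3.91. Its log2 fold change was 0.94 (edgeR adjusted p = 0.00118), and exons of RSC1A1 on the same strand cover 15.3% of its exon bases. The extraction ATPase VCP and its cofactor UFD1 moved the other way. VCP had 517, 456 and 484 CPM in shBry and 792, 741 and 741 in shNC (-0.64, edgeR adjusted p = 1.04e-05). UFD1, listed as UFD1L, had 60.5, 42.7 and 55.6 CPM against 106, 104 and 108 (-1.003, edgeR adjusted p = 4.32e-06). The groups did not overlap for any of these 5 genes, all of which were called. Of all tested genes, 30.6% had all shBry libraries above all shNC libraries, and 28.9% had them below. DDI2 aside, the list held 8 genes for the handling of NFE2L1. At the adjusted p alone, 2 of them were higher (beside 28.0% of all genes) and 3 lower (beside 25.3%). NPLOC4 was lower (-0.35), and SYVN1 (0.14), BTRC (-0.10) and FBXW7 (0.32) did not pass.

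Among proteins bound to the proteasome, AKIRIN2, which carries proteasomes into the nucleus, had 76.1, 73.3 and 82.5 CPM in shBry and 33.7, 38.0 and 36.5 in shNC, a log2 fold change of 1.10 (SE 0.09, edgeR adjusted p = 2.51e-07). ECPAS, listed as KIAA0368, an adaptor that links core and regulatory particle, rose by 0.68 on the log2 scale (edgeR adjusted p = 4.16e-06), and the deubiquitinase UCHL5 by 0.75 (edgeR adjusted p = 0.00144), while USP14 (0.35) rose without passing the fold limit. SEM1, listed as SHFM1, is itself a small lid subunit that the naming rule does not catch. It had 20.6, 18.2 and 21.9 CPM against 32.2, 33.1 and 37.5 and fell, with a log2 fold change of -0.76 (edgeR adjusted p = 7.7e-05). ZFAND2A gave 0.00, the value nearest to 0 in the list. UCHL5 and USP14 aside, this part of the list held 8 genes. At the adjusted p alone, 3 of them were higher (beside 28.0% of all genes) and 3 lower (beside 25.3%). The lower ones included PAAF1 (-0.38) and UBE3C (-0.26), which did not pass the fold limit.

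The shuttle receptors that bring ubiquitinated proteins to the proteasome were higher at an adjusted p below 0.05 in 4 of 6 cases (beside 28.0% of all genes), and 0 were lower (beside 25.3%). RAD23B (0.59) lay near the fold limit and was called in 3 of the 6 fits without a library, in which it ranged from 0.55 to 0.61, and UBQLN4 was the lowest of the group (0.16, edgeR adjusted p = 0.127). Of the ubiquitin precursor genes, UBB had 631, 538 and 605 CPM in shBry and 967, 1039 and 939 in shNC and was called lower (-0.73, edgeR adjusted p = 5.37e-06), with 28.4% of its exon bases shared with another gene. RPS27A, which encodes ubiquitin fused to a ribosomal protein, was the highest of them (0.51, edgeR adjusted p = 0.000908). The ubiquitin-activating enzymes UBA6 (0.58) and UBA1 (0.05) did not pass.

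**Figure D5:**
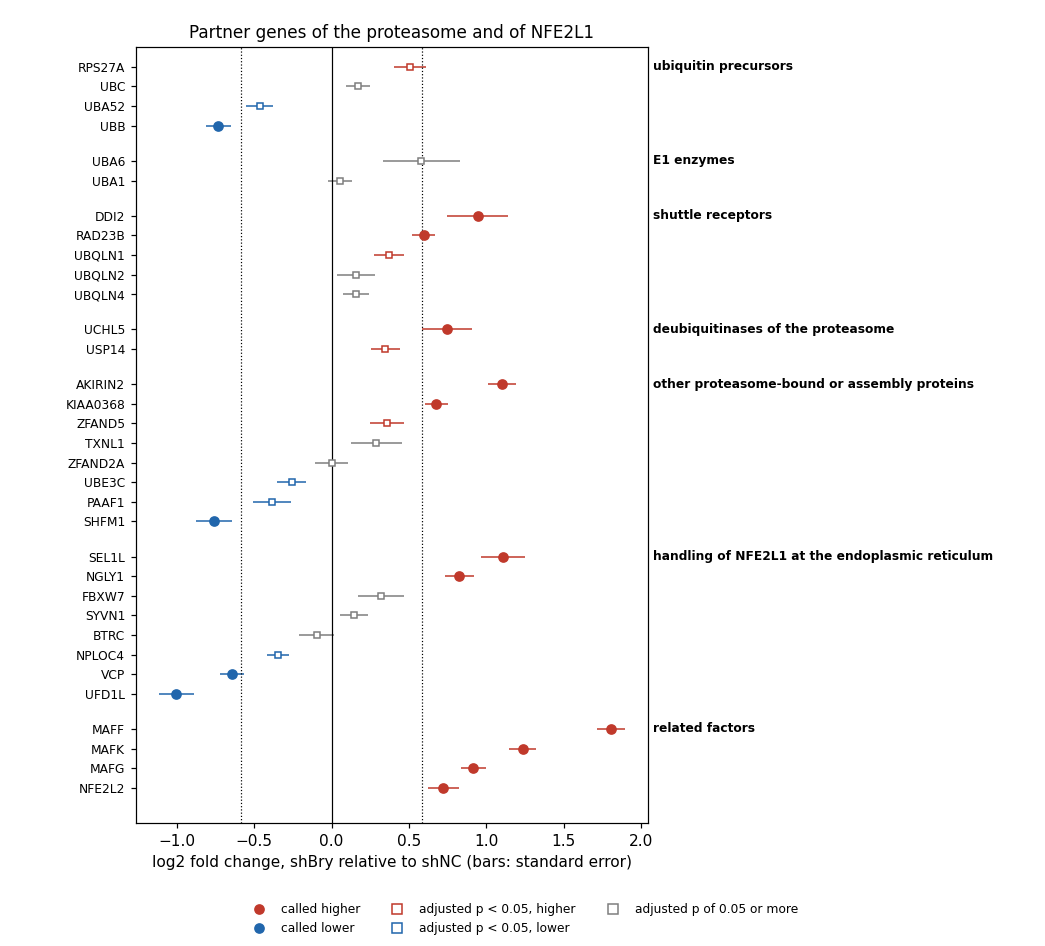
Log2 fold change of shBry relative to shNC for partner genes of the proteasome and of NFE2L1, all but 1 of the list, grouped by role, with bars for the standard error and dotted lines at a fold change of 1.5. The 4 related factors all lie to the right of the limit, with MAFF at 1.80, while VCP at -0.64 and UFD1L at -1.003 lie to the left of it.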

How the data were processed

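The RNA-Sequence data comprised 3 shBry and 3 shNC libraries of MDA-MB-231 cells. The values deposited by the authors are raw counts per gene symbol, without normalization. The submitters' processing notes name HISAT2 2.0.4, HTSeq and the build GRCh38. The annotation and the strand setting were not given in the sources used here. All 6 columns of counts were mapped to samples by their names, and 0 columns of other samples were used. ChIP-seq, PCR and flow cytometry data were not analysed here. The values of 1 called partner gene are not reported here.

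Low genes were removed with filterByExpr (minimum count 10), and libraries were scaled with TMM. The groups were then compared with edgeR 4.0.16 (quasi-likelihood test, R 4.3.3), with Benjamini-Hochberg adjustment over all tested genes. Called genes had an adjusted p below 0.05 together with a fold change above 1.5. CPM are TMM-normalized. Standard errors are the absolute log2 fold change over the square root of F. The test was tried on simulated counts. The libraries held between 19319411 and 22985371 counts, and the limit given for a gene at 0 covers counting error only.

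Gene positions, exon lengths and exon overlaps were taken from GENCODE 29 (GRCh38) by symbol, and promoters from RefSeq (GRCh38.p14). The genes given in every library were all called members, the highest and lowest of each role group, and PSMB5, PSMB6, PSMB7, PSMB10, PSMD4, ADRM1, PSMD14, POMP and NFE2L1. PSMG1 and PSMD12 were added for their promoters. PSMB3, PSMC4, PSMA4, PSMD5-AS1 and the ratios between genes were chosen after their values were seen. The members, lists and role groups were chosen with earlier results of these data known. The alternatives were no TMM, upper-quartile scaling, DESeq2 1.42.0, limma-voom (limma 3.58.1), other expression filters, unadjusted p, a fold change limit of 2, the replicate number as a block and each library left out in turn.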

Additional observations from a re-analysis of the deposited data

How the results depend on the processing

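With each library left out in turn, 2 to 4 proteasome genes were called higher and 6 to 8 lower, 8 to 14 were higher and 15 to 21 lower at the adjusted p alone, 10 to 13 partner genes were called higher and 4 lower, and the median log2 fold change of the proteasome genes lay between -0.15 and -0.08. A fold change limit of 2 left 1 proteasome gene higher (NFE2L1) and 2 lower (PSMD3 and PSMD1), and 4 partner genes higher and 1 lower. The share of all tested genes past a limit of 2 was not counted, so these counts have no background beside them. Under the other scalings, filters and tools the counts of called proteasome genes were 2 or 3 higher and 7 or 8 lower. Of the 9 called proteasome genes, 8 were called in all 6 fits without a library.

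Signs turned only for members near 0 or with few counts. The log2 fold change of PSMD4 was -0.0046 without TMM, -0.022 with upper-quartile scaling, -0.0037 with DESeq2 and -0.0094 with no expression filter, and lay between -0.068 and 0.093 with a library left out. The same range was -0.078 to 0.0068 for PSMD6, -0.10 to 0.052 for PSMD5, -0.028 to 0.16 for PSMG3, -0.16 to 0.050 for PSMB6, -0.14 to 0.043 for PSMC6, -0.61 to 0.29 for PSMB3 and -1.88 to 1.24 for PSMC4. The cause was not tested.

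The libraries of both groups share replicate numbers, but the deviations of same-numbered libraries correlated at 0.18, -0.08 and -0.03, so the numbers were not taken as pairs. With the replicate block, 3 proteasome genes were called higher, PSMD12 being added, and 7 lower. Low counts limit PSMB3 and PSMC4, and with 3 libraries a group an exact permutation test of a single gene cannot give a p below 0.1.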

Other observations

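Rows of antisense transcripts and pseudogenes named after proteasome genes were also read. Beside PSMD5-AS1, the antisense rows PSMA3-AS1, PSMG3-AS1 and PSMD6-AS2 had enough counts to be tested. PSMA3-AS1 had 12.1, 17.8 and 13.3 CPM in shBry 1, 2 and 3 and 10.3, 12.0 and 15.8 CPM in shNC 1, 2 and 3, with a log2 fold change of 0.19 (edgeR adjusted p = 0.40). PSMG3-AS1 gave -0.07 (edgeR adjusted p = 0.749). PSMD6-AS2 had 7 to 9 counts in shBry and 10 to 16 in shNC, and its log2 fold change of -0.77 did not pass (edgeR adjusted p = 0.135). The groups overlapped for PSMA3-AS1 and PSMG3-AS1 and not for PSMD6-AS2.

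Among the pseudogene rows, PSMC1P1 had the most counts, with 321, 389 and 420 in shBry 1, 2 and 3 and 430, 423 and 418 in shNC 1, 2 and 3. PSMD10P2 had 13, 14 and 19 counts in shBry and 32, 31 and 47 in shNC, or 3.32% of those of PSMD10 over all libraries. By counts, all its shBry libraries were below its shNC libraries.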
